A study of Mus musculus with 24 samples.

Results

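The circadian clock genes are 10 genes of the core clockwork, namely Arntl, Clock, Per1, Per2, Per3, Cry1, Cry2, Nr1d1, Nr1d2 and Dbp. They were taken by symbol from the gene column, which lists 24825 genes, and all 10 were found and passed the filter on low values. Their RNA was measured by RNA-seq in 24 libraries of ingSVF cells, the stromal vascular fraction of inguinal white fat from mice, in which adipocyte precursors lie among other cells. Every group was made from Nfia flox/flox cells, in which exon 2 of the transcription factor gene Nfia lies between loxP sites. The allele came from C57BL/6N embryonic stem cells in mice bred to C57BL/6J, and the age of the donor mice is not given in the sources used here. All cells also carried SV40 large T antigen. The 4 cell types were ctrl (empty retroviral vector), Cre (a retroviral vector for Cre recombinase), Cre_NFIA (Cre and FLAG-tagged full-length NFIA, written Cre + NFIA below) and Cre_deltapro#3 (Cre and the Δpro#3 mutant, an NFIA without a stretch of its C-terminal proline rich domain, written Cre + Δpro#3). Each cell type gave 3 replicates before (day 0) and 3 after (day 7) differentiation towards thermogenic adipocytes. Differentiation began with isobutylmethylxanthine, indomethacin, dexamethasone, insulin, triiodothyronine and rosiglitazone, and went on with the last 3 of these. No source used here says whether replicates were separate cultures, so p-values measure the spread between these libraries, which may be technical.

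The mammalian clock is a loop of transcription and feedback. ARNTL (also called BMAL1) and CLOCK bind together to E-boxes and switch on the Per and Cry genes, whose proteins return to the nucleus and repress that pair. A further loop runs through the nuclear receptors REV-ERBα (Nr1d1) and REV-ERBβ (Nr1d2), which repress Arntl, and through DBP, an E-box target that itself activates genes with D-boxes. Most cell types keep such a clock, adipocytes among them. Dexamethasone and serum changes are known to set its phase in cultured cells. The hour of harvest is not given in the sources used here and each group was sampled at 1 time point a day. A shift in the phase of the cells and a change in mean level therefore cannot be told apart in any value below.

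Between 7.73 and 13.09 M reads (M, 1000000) were counted per day 0 library and between 9.15 and 14.62 M per day 7 library. Gene-level Nfia was at 6.23, 6.75 and 6.43 FPKM (ctrl), 6.81, 5.34 and 6.49 FPKM (Cre), 74.9, 69.7 and 72.7 FPKM (Cre + NFIA) and 61.7, 59.7 and 60.7 FPKM (Cre + Δpro#3) at day 0. The 6 day 7 libraries with an added form of NFIA, which came from retroviral vectors, stood at 83.9 to 111 FPKM and the other 6 at 9.15 to 10.7 FPKM. It did not fall in libraries labelled Cre, where it differed from ctrl by -0.06 (95% interval -0.21 to 0.10, limma adjusted p = 0.686) on the log2 scale at day 0 and by 0.07 (95% interval -0.09 to 0.23, limma adjusted p = 0.426) at day 7. Only exon 2 is removed, so this value does not check the Cre label, and in these libraries each direction given for Cre rests on the label. For Cre-expressing cells the paper reports recombination by PCR of genomic DNA. It also reports an almost full loss of NFIA by RT-qPCR and Western blot. The summed level of 15 adipocyte markers was 110 to 146 FPKM in every library at day 0. At day 7 it was 23882 to 27600 FPKM in ctrl, 4828 to 10279 in libraries labelled Cre, 22872 to 23104 in Cre + NFIA and 932 to 2355 in Cre + Δpro#3. The sum of 10 adipose precursor markers was highest at day 0, at 3150 to 4184 FPKM, and at day 7 it was 1037 to 1449 FPKM in ctrl and Cre + NFIA and 2355 to 3003 FPKM in the other two cell types. The summed level was 3.84 to 11.3 FPKM for 5 macrophage markers and 1.67 to 10.2 FPKM for the endothelial markers over all libraries. In any library Adgre1 had 0 reads, Ptprc at most 1, Itgam at most 2, Cdh5 at most 3, Pecam1 at most 19 and Vwf at most 33. The others of these lists were detected, with Tek at up to 7.34 FPKM (430 reads), Kdr at up to 3.73 FPKM, Csf1r at up to 3.64 FPKM and Cd68 at 3.53 to 8.23 FPKM.

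The promoters are shown because the feedback loop acts on E-boxes and D-boxes. RefSeq promoter windows of 250 bases before to 50 bases after the start site (GRCm38.p6, a later build than the mm9 of the expression files) were found for 9 of the 10 genes, Per2 excepted, in 13 windows. The E-box CACGTG lay in a window of Per1 and of Cry1, and in 7.15% of 32851 mouse promoters. Its variant CACGTT lay in windows of Cry1, Cry2 and Nr1d1 and in 4.68% of all promoters. The D-box variant TTATGTAA occurred at 2 places in Per3 and in 0.938% of all promoters. Motifs were searched on both strands, and CACGTT and its reverse complement AACGTG count as 1 motif. Capitals mark the motifs in the stretches below, which start 30 bases before the first motif and end 30 bases after the last.
Per1 chr11:69098753-69098818 (+ strand): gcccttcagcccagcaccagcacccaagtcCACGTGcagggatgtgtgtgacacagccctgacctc
Cry1 chr10:85185079-85185163 (- strand): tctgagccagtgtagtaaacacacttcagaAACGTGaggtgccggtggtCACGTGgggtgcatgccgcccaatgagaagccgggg
Cry2 chr2:92434200-92434265 (- strand): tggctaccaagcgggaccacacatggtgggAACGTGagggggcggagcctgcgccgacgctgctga
Nr1d1 chr11:98775370-98775435 (- strand): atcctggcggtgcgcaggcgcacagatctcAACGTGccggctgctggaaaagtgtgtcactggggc
Per3 chr4:151044786-151044900 (- strand): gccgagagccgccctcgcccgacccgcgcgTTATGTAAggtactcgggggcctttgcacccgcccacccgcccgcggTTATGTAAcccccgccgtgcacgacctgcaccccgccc
In Per1 the E-box starts 166 bases before the start site, and in Cry1 it starts 60 bases before it, with the variant 79 bases before it. The D-box TTACGTAA (0.119% of all promoters), TNNAGGTCA, a form of the sequence that ROR and REV-ERB proteins bind (4.29%), the cAMP element TGACGTCA (1.79%) and the NFI half-site TTGGCA (14.1%) matched none of the 13 windows. The pattern TNNAGGTCA is strict in its first T. An Arntl window holds AGGTCA with an A in that place (aaagtaggtca), so the lack of a match does not show that such a site is missing. A match is a run of letters, and binding was not measured here.

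All 10 genes were at 1 FPKM or more in all 24 libraries. FPKM divides a gene's fragments by its length in kilobases and by the library's counted fragments in units of 1000000, so levels of different genes can be set side by side on this scale. The lowest value was 4.21 FPKM (Dbp) and the highest 20.7 FPKM (Per1), with at least 62 reads behind each value. Below, a log2 difference is a difference between group means of log2(FPKM + 1), and being called means a limma p, adjusted by Benjamini-Hochberg over the 12640 genes tested, below 0.05. This scale makes the change of low genes smaller. The plot of the levels shows all 24 libraries of each gene.

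**Figure D1:**
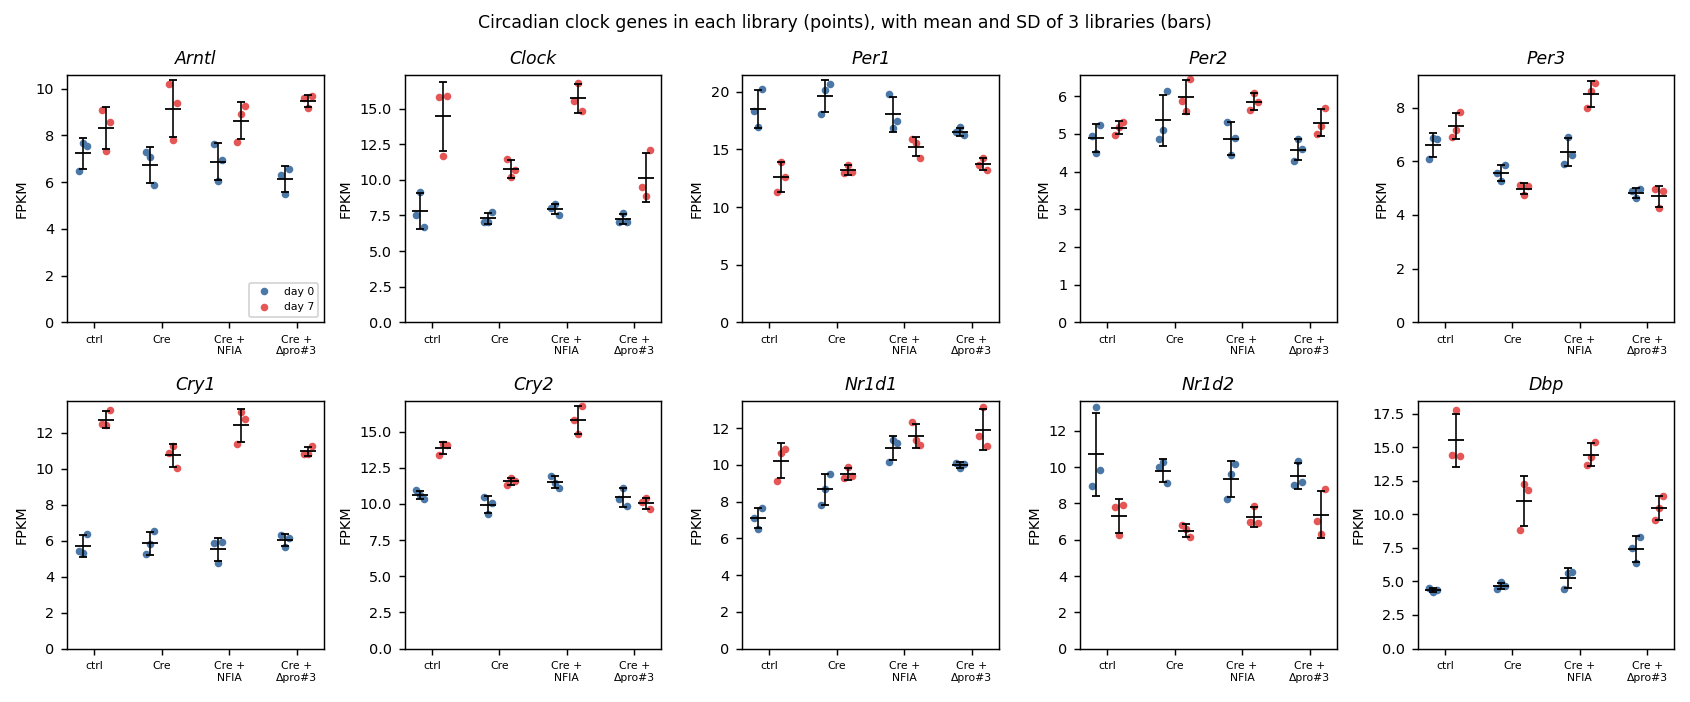
FPKM (y axis, from 0) of the 10 clock genes in the 4 cell types at day 0 (blue) and day 7 (red), where each point is a library and the black bars are the mean and SD of 3 libraries. Cry1 and Dbp were higher at day 7 in every cell type, Per1 and Nr1d2 were lower, and Per3 at day 7 was at 6.89 to 8.93 FPKM in ctrl and Cre + NFIA and at 4.25 to 5.11 FPKM in the other two cell types.

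The comparison of day 7 with day 0 asks how the clock genes move as the cells differentiate. In ctrl cells 5 genes rose (Dbp, Cry1, Clock, Nr1d1 and Cry2) and 2 fell (Per1 and Nr1d2). This is 7 of 10, beside 71% of all genes called, 32.9% higher and 38.1% lower by limma. In libraries labelled Cre 5 rose and 2 fell (51.7% of all genes called, 30% higher and 21.6% lower). In Cre + NFIA 7 rose and 2 fell (70.1% of all genes called, 31.8% higher and 38.3% lower). The counts in Cre + Δpro#3 were 5 and 2 (41.5% of all genes called, 24.5% higher and 17% lower). Dbp, Cry1, Clock, Per1 and Nr1d2 were called in the same direction in all 4 cell types. The median log2 difference of the 10 genes was 0.27 against -0.05 for all genes tested in ctrl, 0.17 against 0.05 in libraries labelled Cre, 0.33 against -0.05 in Cre + NFIA and 0.20 against 0.05 in Cre + Δpro#3. Of the 10 genes only Dbp in ctrl was called and changed at least 3-fold on this scale, where 8.5% of all genes did so. In Cre (2.73% of all genes), Cre + NFIA (9.08%) and Cre + Δpro#3 (1.46%) none of the 10 did. At 1.5-fold or more, 3 were called in ctrl (38.3% of all genes), 2 in Cre (17.9%), 3 in Cre + NFIA (37.9%) and 1 in Cre + Δpro#3 (12.1%). The summed level of precursor markers also moved with day, as given above. Of 9 such markers tested 2 were higher and 7 lower at day 7 in ctrl, 2 and 5 in Cre and in Cre + NFIA, and 4 and 2 in Cre + Δpro#3, and their part in the clock gene differences was not tested. In these bulk samples fewer cells of a type and less RNA per cell cannot be told apart.

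**Figure D2:**
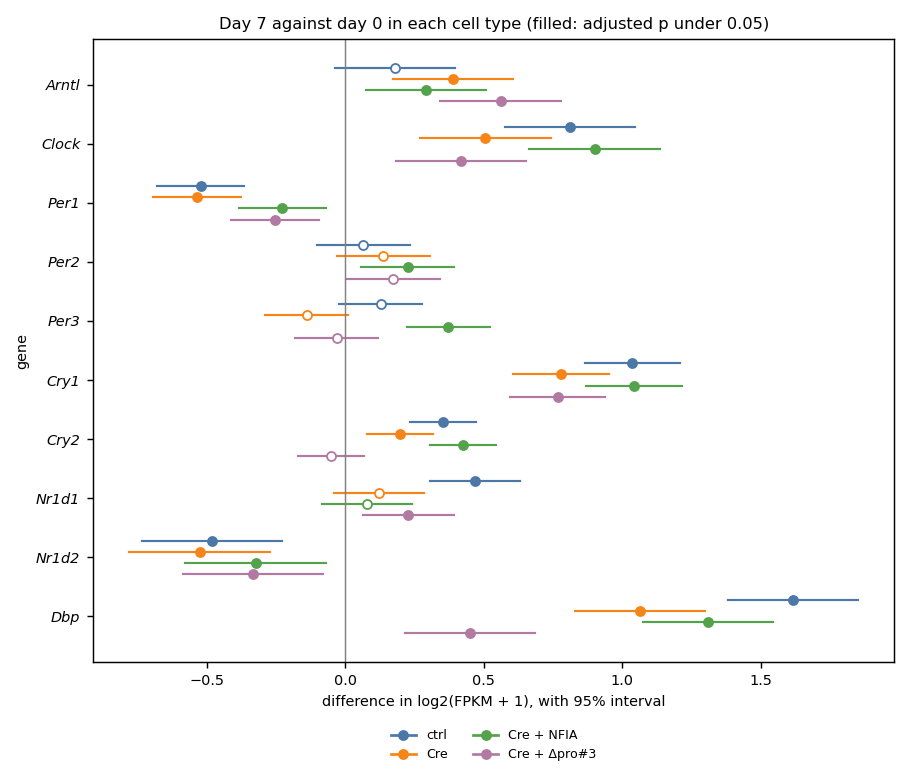
Difference in log2(FPKM + 1) between day 7 and day 0 (x axis) for each clock gene (y axis) in the 4 cell types (colours), with 95% intervals, where filled points had an adjusted p under 0.05. Dbp ranged from 0.45 in Cre + Δpro#3 to 1.62 in ctrl, whereas Per1 and Nr1d2 lay below 0 in all 4 cell types.

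The comparisons between cell types at day 7 ask what changes when Nfia is targeted and whether that depends on which form of NFIA is added. Against ctrl, libraries labelled Cre had lower Per3, Dbp, Clock, Cry2 and Cry1 and higher Per2. This is 6 of 10 genes, near the 58.8% called among all genes tested. The directions were 5 lower and 1 higher, where 22.7% of all genes were called lower and 36.1% higher. With median-of-ratios size factors that split over all genes turned, from 4563 higher and 2867 lower to 3398 and 3948, and the median of all genes shifted by -0.11. The clock genes were then 6 lower and 0 higher. In Cre + NFIA against Cre 7 genes were higher and 0 lower, where 27% of all genes were called higher and 35.9% lower (63% in all). With median-of-ratios size factors the split over all genes was 4264 higher and 3677 lower in place of 3418 and 4540, and the clock genes stayed at 7 higher and 0 lower. In Cre + Δpro#3 against Cre only Cry2 (lower) and Nr1d1 (higher) were called (17.7% of all genes called, 7.7% higher and 10% lower). Both calls were lost when libraries were left out, as given with those genes below. In Cre + Δpro#3 against Cre + NFIA limma called 5 genes, all lower (69.2% of all genes called, 40.4% higher and 28.9% lower). Under median-of-ratios scaling 7 were lower, and the median of all genes shifted by -0.10. The split over all genes was then 4170 higher and 4429 lower in place of 5101 and 3649. Against ctrl, Cre + Δpro#3 had 5 lower and 1 higher (66.9% of all genes called, 41.4% higher and 25.4% lower), and Cre + NFIA had 1 higher (18% of all genes called, 8.81% higher and 9.15% lower). These comparisons share libraries, so their values are set side by side and are not independent of each other.

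**Figure D3:**
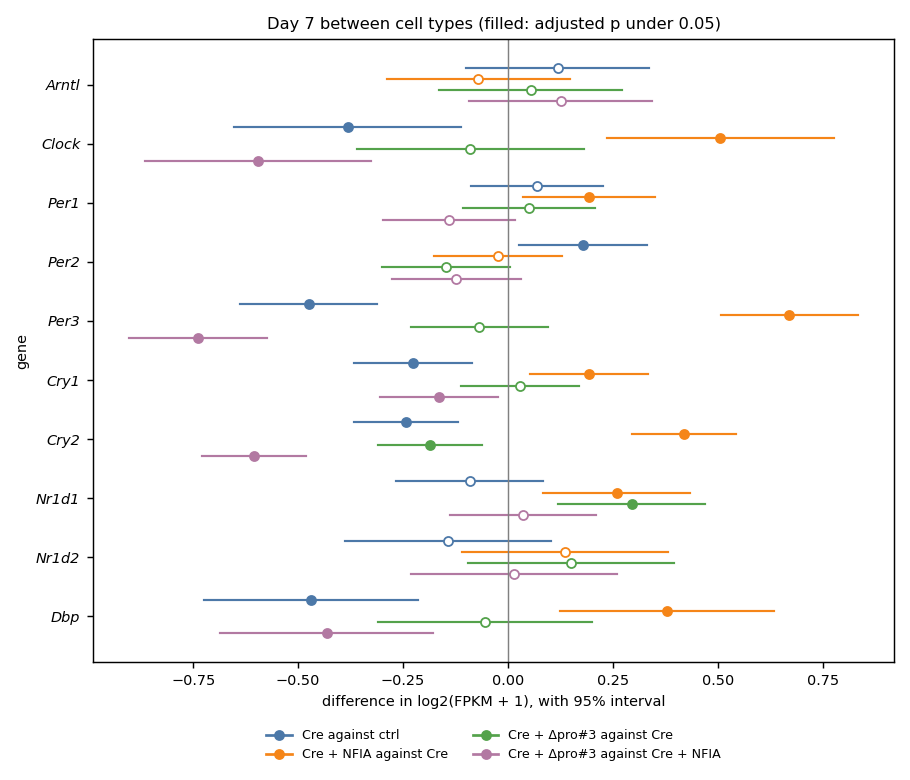
Difference in log2(FPKM + 1) between cell types at day 7 (x axis) for each clock gene (y axis), with 95% intervals, where filled points had an adjusted p under 0.05. Per3 differed by -0.47 in Cre against ctrl, 0.67 in Cre + NFIA against Cre, -0.07 in Cre + Δpro#3 against Cre and -0.74 in Cre + Δpro#3 against Cre + NFIA.

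The median absolute log2 difference of the 10 genes at day 7 was 0.20 against 0.30 over all genes tested in Cre against ctrl, 0.23 against 0.34 in Cre + NFIA against Cre and 0.15 against 0.41 in Cre + Δpro#3 against Cre + NFIA. It was 0.08 against 0.13 in Cre + Δpro#3 against Cre, 0.20 against 0.38 in Cre + Δpro#3 against ctrl and 0.14 against 0.14 in Cre + NFIA against ctrl, the 1 comparison of these 6 in which the clock genes were not below all genes. At 1.5-fold or more beside the adjusted p, 0 clock genes were called in Cre against ctrl (23.5% of all genes), 1 in Cre + NFIA against Cre (28.9%) and 3 in Cre + Δpro#3 against Cre + NFIA (35.7%). It was 0 in Cre + Δpro#3 against Cre (4.98%), in Cre + NFIA against ctrl (4.07%) and in Cre + Δpro#3 against ctrl (32%). Adipocyte markers moved with these comparisons. All 14 that were tested were lower in Cre against ctrl (median log2 difference -1.68), higher in Cre + NFIA against Cre (1.71), lower in Cre + Δpro#3 against Cre (-2.04) and lower in Cre + Δpro#3 against Cre + NFIA (-3.75). The part of adipocyte content in the clock gene differences was not tested.

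Arntl and Clock encode the activator pair. Arntl (chromosome 7, 120350979 to 120457636, plus strand, in NCBIM37, the assembly that mm9 names, as are all gene positions below) was at 6.47, 7.67 and 7.54 FPKM (ctrl), 7.28, 7.07 and 5.85 FPKM (Cre), 7.61, 6.05 and 6.96 FPKM (Cre + NFIA) and 6.32, 5.49 and 6.54 FPKM (Cre + Δpro#3) at day 0. After differentiation the values were 9.07, 7.34 and 8.58 FPKM (ctrl), 10.2, 7.81 and 9.40 FPKM (Cre), 7.73, 8.91 and 9.24 FPKM (Cre + NFIA) and 9.58, 9.18 and 9.68 FPKM (Cre + Δpro#3). No comparison between cell types called Arntl, and the groups overlapped at day 7 except Cre + Δpro#3 and ctrl, which differed by 0.17 (95% interval -0.05 to 0.39, limma adjusted p = 0.147). From day 0 to day 7 it rose by 0.39 (SE 0.10, limma adjusted p = 0.00374) in libraries labelled Cre and by 0.56 (SE 0.10, limma adjusted p = 0.000183) in Cre + Δpro#3. In ctrl the difference was 0.18 (95% interval -0.04 to 0.40, limma adjusted p = 0.128), and median-of-ratios size factors brought it past the test (0.26, limma adjusted p = 0.028). In Cre + NFIA it was 0.29 (SE 0.10, limma adjusted p = 0.0171), a call that was lost without Cre + NFIA day 0 replicate 2 or Cre + NFIA day 7 replicates 2 or 3 (limma adjusted p = 0.0533 to 0.101).

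Clock (chromosome 5, 76639992 to 76733817, minus strand) was at 7.51, 9.17 and 6.69 FPKM (ctrl), 7.05, 7.06 and 7.76 FPKM (Cre), 7.997, 8.28 and 7.56 FPKM (Cre + NFIA) and 7.07, 7.68 and 7.06 FPKM (Cre + Δpro#3) at day 0. On day 7 the values were 15.8, 11.7 and 15.9 FPKM (ctrl), 11.4, 10.2 and 10.7 FPKM (Cre), 15.5, 16.8 and 14.8 FPKM (Cre + NFIA) and 9.49, 8.83 and 12.1 FPKM (Cre + Δpro#3). The 3 Cre + NFIA libraries at day 7 lay above all libraries of the Cre and Cre + Δpro#3 groups, and ctrl replicate 2 lay apart from the other ctrl libraries, just above the highest Cre value. Clock rose from day 0 to day 7 in all 4 cell types, by 0.81 (SE 0.11, limma adjusted p = 1.76e-06) in ctrl, 0.51 in libraries labelled Cre, 0.90 (SE 0.11, limma adjusted p = 4.14e-07) in Cre + NFIA and 0.42 in Cre + Δpro#3. The ratios of mean FPKM were 1.86, 1.48, 1.98 and 1.39 in that order. At day 7 it was 0.51 (SE 0.12, limma adjusted p = 0.0035) higher on the log2 scale in Cre + NFIA than in libraries labelled Cre. Cre + Δpro#3 differed from Cre + NFIA by -0.60 (SE 0.12, limma adjusted p = 0.000971) and from ctrl by -0.47 (SE 0.12, limma adjusted p = 0.0049). It differed from Cre by -0.09 (95% interval -0.36 to 0.18, limma adjusted p = 0.672). Cre against ctrl gave -0.38 (SE 0.12, limma adjusted p = 0.0187), and that call was lost without ctrl replicates 1 or 3 or Cre replicate 2 (limma adjusted p = 0.0565 to 0.0765).

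The Per genes encode repressors of that pair. Per1 (chromosome 11, 68908719 to 68923462, plus strand), which has an E-box in the promoter stretch above and is also known to respond to glucocorticoids, had the highest mean level of the 10 at day 0 in all 4 cell types. It was at 18.3, 16.9 and 20.2 FPKM (ctrl), 18.05, 20.1 and 20.7 FPKM (Cre), 19.8, 16.8 and 17.5 FPKM (Cre + NFIA) and 16.5, 16.9 and 16.2 FPKM (Cre + Δpro#3) at day 0. Day 7 values were 11.3, 13.9 and 12.6 FPKM (ctrl), 12.9, 13.7 and 13.03 FPKM (Cre), 15.9, 15.6 and 14.3 FPKM (Cre + NFIA) and 13.7, 14.3 and 13.2 FPKM (Cre + Δpro#3). In each cell type the 3 libraries of day 7 lay below the 3 of day 0. The log2 difference was -0.52 (SE 0.08, limma adjusted p = 3.03e-06) in ctrl and -0.54 (SE 0.08, limma adjusted p = 5.12e-06) in libraries labelled Cre. It was -0.23 (SE 0.08, limma adjusted p = 0.0113) in Cre + NFIA and -0.25 (SE 0.08, limma adjusted p = 0.0105) in Cre + Δpro#3. The call in Cre + NFIA was lost without Cre + NFIA day 0 replicate 1 or Cre + NFIA day 7 replicate 3 (limma adjusted p = 0.0612 to 0.0815), and with median-of-ratios size factors (-0.15, limma adjusted p = 0.114). At day 7 Cre + NFIA was above Cre by 0.19 (SE 0.07, limma adjusted p = 0.0349), a call lost without Cre replicates 1 or 3 or Cre + NFIA replicates 1 or 2 (limma adjusted p = 0.0831 to 0.114). It was above ctrl by 0.26 (SE 0.07, limma adjusted p = 0.0267), the 1 clock gene called in that comparison, and this was lost without ctrl replicates 1 or 3 or Cre + NFIA replicates 1 or 2 (limma adjusted p = 0.061 to 0.0996) and with median-of-ratios size factors (0.24, limma adjusted p = 0.06).

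Per2 (chromosome 1, 93312561 to 93355907, minus strand) had the narrowest range of the 10 genes. It was at 4.95, 4.50 and 5.24 FPKM (ctrl), 4.86, 5.10 and 6.13 FPKM (Cre), 5.30, 4.43 and 4.89 FPKM (Cre + NFIA) and 4.29, 4.87 and 4.60 FPKM (Cre + Δpro#3) at day 0. After 7 days the values were 4.98, 5.19 and 5.32 FPKM (ctrl), 5.89, 5.60 and 6.47 FPKM (Cre), 5.64, 6.08 and 5.86 FPKM (Cre + NFIA) and 5.01, 5.21 and 5.69 FPKM (Cre + Δpro#3). The libraries labelled Cre at day 7 lay above those of ctrl, by 0.18 (SE 0.07, limma adjusted p = 0.044), but the call was lost without ctrl replicates 1, 2 or 3 or Cre replicates 1 or 3 (limma adjusted p = 0.0616 to 0.169) and the difference was 0.06, limma adjusted p = 0.442 with median-of-ratios size factors. The rise from day 0 to day 7 was called in Cre + NFIA alone, at 0.23 (SE 0.08, limma adjusted p = 0.017), and was lost without Cre + NFIA day 0 replicate 2 or Cre + NFIA day 7 replicate 2 (limma adjusted p = 0.0587 to 0.0952).

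Per3 (chromosome 4, 150377761 to 150418774, minus strand), whose promoter stretch above holds the D-box variant at both marked places, had separate ranges at day 7. It was at 6.09, 6.87 and 6.85 FPKM (ctrl), 5.58, 5.28 and 5.88 FPKM (Cre), 5.89, 6.92 and 6.25 FPKM (Cre + NFIA) and 4.88, 4.62 and 4.96 FPKM (Cre + Δpro#3) at day 0. On day 7 the values were 6.89, 7.18 and 7.85 FPKM (ctrl), 5.11, 4.73 and 5.08 FPKM (Cre), 7.98, 8.62 and 8.93 FPKM (Cre + NFIA) and 4.97, 4.25 and 4.89 FPKM (Cre + Δpro#3). All 6 libraries of ctrl and Cre + NFIA then lay above all 6 of Cre and Cre + Δpro#3. The log2 difference was -0.47 (SE 0.07, limma adjusted p = 0.000183) in Cre against ctrl and 0.67 (SE 0.07, limma adjusted p = 8.85e-06) in Cre + NFIA against Cre, with ratios of mean FPKM of 0.681 and 1.71. Cre + Δpro#3 differed from Cre by -0.07 (95% interval -0.23 to 0.09, limma adjusted p = 0.586), from Cre + NFIA by -0.74 (SE 0.07, limma adjusted p = 2.6e-06) and from ctrl by -0.54 (SE 0.07, limma adjusted p = 4.32e-05). The calls of Cre and of Cre + Δpro#3 against ctrl, of Cre + NFIA against Cre and of Cre + Δpro#3 against Cre + NFIA held in every setting tried other than the fold thresholds and without any 1 library. Cre + NFIA against ctrl gave 0.20 (95% interval 0.03 to 0.36, limma adjusted p = 0.094). Between days Per3 rose in Cre + NFIA by 0.37 (SE 0.07, limma adjusted p = 0.000103), and the difference was 0.13 (95% interval -0.02 to 0.28, limma adjusted p = 0.117) in ctrl, -0.14 (95% interval -0.29 to 0.01, limma adjusted p = 0.114) in libraries labelled Cre and -0.03 (95% interval -0.18 to 0.12, limma adjusted p = 0.77) in Cre + Δpro#3. With quantile normalization Per3 was called lower at day 7 in libraries labelled Cre (-0.29, limma adjusted p = 0.00149) and higher in ctrl (0.17, limma adjusted p = 0.04).

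Cry1 and Cry2 encode the cryptochromes, the main repressors of the activator pair. Cry1 (chromosome 10, 84594447 to 84647799, minus strand), which has both E-box forms in its promoter stretch, was at 5.44, 5.30 and 6.38 FPKM (ctrl), 5.25, 5.79 and 6.52 FPKM (Cre), 5.85, 4.78 and 5.94 FPKM (Cre + NFIA) and 6.30, 5.67 and 6.13 FPKM (Cre + Δpro#3) at day 0. Day 7 values were 12.5, 12.4 and 13.2 FPKM (ctrl), 10.9, 11.3 and 10.1 FPKM (Cre), 11.4, 13.1 and 12.7 FPKM (Cre + NFIA) and 10.8, 10.8 and 11.3 FPKM (Cre + Δpro#3). Every library of day 7 lay above every library of day 0, by 2.23-fold in ctrl, 1.83-fold in libraries labelled Cre, 2.25-fold in Cre + NFIA and 1.82-fold in Cre + Δpro#3. The log2 differences were 1.04 (SE 0.08, limma adjusted p = 4e-10), 0.78, 1.04 and 0.77 (SE 0.08, limma adjusted p = 2.1e-07) in that order. Between cell types the day 7 differences were smaller, -0.23 (SE 0.06, limma adjusted p = 0.00925) in Cre against ctrl and 0.19 (SE 0.06, limma adjusted p = 0.0205) in Cre + NFIA against Cre. The call of Cre + NFIA against Cre was lost without Cre replicate 3 or Cre + NFIA replicates 2 or 3 (limma adjusted p = 0.0681 to 0.0856). With only the groups compared it was lost too (limma adjusted p = 0.0504). The difference of Cre + Δpro#3 from Cre + NFIA was -0.16 (SE 0.06, limma adjusted p = 0.0385), lost without Cre + NFIA replicates 2 or 3 or Cre + Δpro#3 replicates 1 or 2 (limma adjusted p = 0.0878 to 0.143). This call was also lost with only the groups compared (limma adjusted p = 0.0618) and with all 24 libraries in 1 fit (0.0855). The difference of Cre + Δpro#3 from ctrl was -0.20 (SE 0.06, limma adjusted p = 0.0162), lost without ctrl replicate 3 (limma adjusted p = 0.0615), and that from Cre was 0.03 (95% interval -0.11 to 0.17, limma adjusted p = 0.81).

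Cry2 (chromosome 2, 92243803 to 92274200, minus strand) was at 10.9, 10.6 and 10.4 FPKM (ctrl), 10.5, 9.31 and 10.1 FPKM (Cre), 11.9, 11.4 and 11.1 FPKM (Cre + NFIA) and 10.4, 11.1 and 9.84 FPKM (Cre + Δpro#3) at day 0. After differentiation the values were 13.4, 14.1 and 14.1 FPKM (ctrl), 11.3, 11.8 and 11.6 FPKM (Cre), 15.8, 14.9 and 16.8 FPKM (Cre + NFIA) and 10.1, 10.4 and 9.61 FPKM (Cre + Δpro#3). At day 7 none of the 4 groups overlapped, and the order from high to low was Cre + NFIA, ctrl, Cre and Cre + Δpro#3. The log2 difference was -0.24 (SE 0.06, limma adjusted p = 0.00292) in Cre against ctrl, 0.42 (SE 0.06, limma adjusted p = 4.44e-05) in Cre + NFIA against Cre and -0.60 (SE 0.06, limma adjusted p = 1.33e-06) in Cre + Δpro#3 against Cre + NFIA. Against ctrl, Cre + Δpro#3 differed by -0.43 (SE 0.06, limma adjusted p = 3.1e-05) and Cre + NFIA by 0.18 (95% interval 0.05 to 0.30, limma adjusted p = 0.0525). The difference of Cre + Δpro#3 from Cre was -0.19 (SE 0.06, limma adjusted p = 0.0414), and this call was lost without Cre replicates 1, 2 or 3 or Cre + Δpro#3 replicates 1, 2 or 3 (limma adjusted p = 0.0507 to 0.123), with the replicate number as a block (-0.19, limma adjusted p = 0.0598) and under each scaling tried. Between days Cry2 rose by 0.35 (SE 0.06, limma adjusted p = 1.22e-05) in ctrl, 0.43 (SE 0.06, limma adjusted p = 9.82e-07) in Cre + NFIA and 0.20 (SE 0.06, limma adjusted p = 0.00615) in libraries labelled Cre. The last was 0.11, limma adjusted p = 0.166 with quantile normalization and 0.17, limma adjusted p = 0.0744 with limma voom. With only the groups compared that call was lost too (limma adjusted p = 0.0517). The difference in Cre + Δpro#3 was -0.05 (95% interval -0.17 to 0.07, limma adjusted p = 0.505). The exons of Cry2 share 295 bases with a non-coding gene on the other strand, D930015M05Rik, and reads were counted by strand.

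Nr1d1 and Nr1d2 encode the REV-ERB repressors of Arntl. Nr1d1 (chromosome 11, 98629246 to 98636647, minus strand), whose exons share 263 bases with Thra on the other strand, was at 7.12, 6.53 and 7.65 FPKM (ctrl), 7.83, 8.70 and 9.51 FPKM (Cre), 10.2, 11.4 and 11.2 FPKM (Cre + NFIA) and 10.1, 9.83 and 10.1 FPKM (Cre + Δpro#3) at day 0. On day 7 the values were 9.13, 10.6 and 10.9 FPKM (ctrl), 9.26, 9.88 and 9.40 FPKM (Cre), 12.3, 11.3 and 11.1 FPKM (Cre + NFIA) and 11.6, 13.2 and 11.004 FPKM (Cre + Δpro#3). At day 0 the 4 groups did not overlap, with ctrl lowest, then Cre, Cre + Δpro#3 and Cre + NFIA. Against ctrl it was higher by 0.56 (SE 0.08, limma adjusted p = 0.000334) in Cre + NFIA and by 0.44 (SE 0.08, limma adjusted p = 0.00173) in Cre + Δpro#3 at day 0. Cre against ctrl gave 0.26 (95% interval 0.08 to 0.43, limma adjusted p = 0.0999) and Cre + NFIA against Cre gave 0.30 (SE 0.08, limma adjusted p = 0.0142), a call that was lost without Cre + NFIA replicates 2 or 3 (limma adjusted p = 0.0506 to 0.0556). With only the groups compared this call was lost too (limma adjusted p = 0.0523). At day 7 Cre + NFIA was above Cre by 0.26 (SE 0.08, limma adjusted p = 0.0137), lost without Cre + NFIA replicate 1 (limma adjusted p = 0.0596). Cre + Δpro#3 was above Cre by 0.29 (SE 0.08, limma adjusted p = 0.0254), lost without Cre replicates 1 or 3 or Cre + Δpro#3 replicates 1 or 2 (limma adjusted p = 0.0525 to 0.0856). That call was also lost with only the groups compared (limma adjusted p = 0.0638) and with limma voom (0.0514). Cre + Δpro#3 was above ctrl by 0.20 (SE 0.08, limma adjusted p = 0.0406), lost without ctrl replicate 1 or Cre + Δpro#3 replicates 1 or 2 (limma adjusted p = 0.0606 to 0.167) and with median-of-ratios size factors (0.06, limma adjusted p = 0.552). Between days Nr1d1 rose 1.44-fold in ctrl, by 0.47 (SE 0.08, limma adjusted p = 1.93e-05), and in Cre + Δpro#3 by 0.23 (SE 0.08, limma adjusted p = 0.0249), and the latter was lost without Cre + Δpro#3 day 0 replicates 2 or 3 or Cre + Δpro#3 day 7 replicate 2 (limma adjusted p = 0.0541 to 0.137). The call in Cre + Δpro#3 was also lost under each scaling tried (limma adjusted p = 0.0954 to 0.166). Nr1d1 differed by 0.12 (95% interval -0.04 to 0.29, limma adjusted p = 0.204) in libraries labelled Cre and by 0.08 (95% interval -0.09 to 0.24, limma adjusted p = 0.384) in Cre + NFIA.

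Nr1d2 (chromosome 14, 19036568 to 19071641, minus strand) moved the other way with differentiation. It was at 8.96, 13.3 and 9.86 FPKM (ctrl), 10.01, 10.3 and 9.12 FPKM (Cre), 8.27, 9.61 and 10.2 FPKM (Cre + NFIA) and 9.02, 10.3 and 9.18 FPKM (Cre + Δpro#3) at day 0. After 7 days the values were 7.79, 6.24 and 7.94 FPKM (ctrl), 6.81, 6.57 and 6.15 FPKM (Cre), 6.995, 7.88 and 6.90 FPKM (Cre + NFIA) and 7.04, 6.32 and 8.82 FPKM (Cre + Δpro#3). In each cell type the libraries of day 7 lay below those of day 0, and no comparison between cell types called the gene on the scale reported. The change was -0.48 (SE 0.12, limma adjusted p = 0.00142) in ctrl and -0.53 (SE 0.12, limma adjusted p = 0.00112) in libraries labelled Cre. It was -0.32 (SE 0.12, limma adjusted p = 0.0228) in Cre + NFIA, lost without Cre + NFIA day 0 replicates 2 or 3 or Cre + NFIA day 7 replicates 1 or 3 (limma adjusted p = 0.0618 to 0.0924), and -0.33 (SE 0.12, limma adjusted p = 0.033) in Cre + Δpro#3, lost without Cre + Δpro#3 day 0 replicates 2 or 3 or Cre + Δpro#3 day 7 replicates 1 or 2 (limma adjusted p = 0.0543 to 0.156). Under other scalings Nr1d2 at day 7 was called lower in Cre against ctrl, with quantile normalization (-0.29, limma adjusted p = 0.0252), with median-of-ratios size factors (-0.26, limma adjusted p = 0.0414) and with limma voom (-0.30, limma adjusted p = 0.0314). It was called higher in Cre + NFIA than in Cre with quantile normalization (0.25, limma adjusted p = 0.0443) and with limma voom (0.26, limma adjusted p = 0.0497).

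Dbp (chromosome 7, 52960458 to 52965525, plus strand) encodes an output factor of the clock, and it varied most among the 10 genes. It was at 4.55, 4.21 and 4.33 FPKM (ctrl), 4.46, 4.93 and 4.62 FPKM (Cre), 4.42, 5.62 and 5.73 FPKM (Cre + NFIA) and 7.50, 6.40 and 8.31 FPKM (Cre + Δpro#3) at day 0. Day 7 values were 14.4, 17.8 and 14.4 FPKM (ctrl), 8.84, 12.2 and 11.8 FPKM (Cre), 13.7, 14.3 and 15.4 FPKM (Cre + NFIA) and 9.55, 10.4 and 11.4 FPKM (Cre + Δpro#3). At day 0 all 3 Cre + Δpro#3 libraries lay above the other 9, and at day 7 the libraries of ctrl and Cre + NFIA lay above those of Cre and Cre + Δpro#3. With differentiation it rose 3.56-fold in ctrl, 2.35-fold in libraries labelled Cre, 2.75-fold in Cre + NFIA and 1.41-fold in Cre + Δpro#3, with log2 differences of 1.62 (SE 0.11, limma adjusted p = 4.34e-11), 1.07 (SE 0.11, limma adjusted p = 9.33e-08), 1.31 (SE 0.11, limma adjusted p = 1.27e-09) and 0.45 (SE 0.11, limma adjusted p = 0.00294). At day 7 Cre differed from ctrl by -0.47 (SE 0.12, limma adjusted p = 0.0043), and Cre + Δpro#3 differed from Cre + NFIA by -0.43 (SE 0.12, limma adjusted p = 0.00562) and from ctrl by -0.52 (SE 0.12, limma adjusted p = 0.00171). Cre + NFIA was above Cre by 0.38 (SE 0.12, limma adjusted p = 0.0135), a call lost without Cre replicate 1 or Cre + NFIA replicate 3 (limma adjusted p = 0.0518 to 0.0579). It differed from Cre in Cre + Δpro#3 by -0.05 (95% interval -0.31 to 0.20, limma adjusted p = 0.8). At day 0 Cre + Δpro#3 was above ctrl by 0.64 (SE 0.10, limma adjusted p = 0.00104) and above Cre by 0.56 (SE 0.10, limma adjusted p = 0.00396). It was above Cre + NFIA by 0.43 (SE 0.10, limma adjusted p = 0.0237), lost without Cre + NFIA replicate 1 or Cre + Δpro#3 replicates 1 or 3 (limma adjusted p = 0.0762 to 0.101). With only the groups compared this last call was lost too (limma adjusted p = 0.0763). The exons of Dbp share 491 bases with Sphk2 on the other strand.

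At day 0, before differentiation, the clock genes called between cell types were Dbp, Nr1d1, Per3 and Cry2. In Cre against ctrl limma called 0 of 10 at day 0 (3.33% of all genes called, 1.63% higher and 1.7% lower), and 2 had an unadjusted p under 0.05, Nr1d1 and Per3. The count was also 0 in every other setting tried, limma voom on recovered reads among them. Cre + NFIA against Cre called 2 (27.6% of all genes called, 14.7% higher and 12.9% lower), Nr1d1 and Cry2. The Cry2 difference of 0.19 (SE 0.06, limma adjusted p = 0.0408) was lost without Cre replicates 2 or 3 or Cre + NFIA replicates 1, 2 or 3 (limma adjusted p = 0.0583 to 0.133), and with the replicate number as a block (0.19, limma adjusted p = 0.0509). Each scaling tried also lost that call (limma adjusted p = 0.0673 to 0.108), as did a mean FPKM of at least 5 (0.0514) and only the groups compared (0.0858). Cre + NFIA against ctrl called 1 (33.1% of all genes called, 18.8% higher and 14.3% lower), Nr1d1. Cre + Δpro#3 against Cre called 1 (18.3% of all genes called, 9.26% higher and 9.02% lower), Dbp. Cre + Δpro#3 against ctrl called 3 (30.4% of all genes called, 17.2% higher and 13.2% lower), Dbp and Nr1d1 higher and Per3 lower, the last with a difference of -0.38 (SE 0.07, limma adjusted p = 0.0031). Cre + Δpro#3 against Cre + NFIA called 2 (10.1% of all genes called, 4.5% higher and 5.59% lower), Dbp higher and Per3 lower, with a difference of -0.34 (SE 0.07, limma adjusted p = 0.0148), the latter lost without Cre + NFIA replicate 2 or Cre + Δpro#3 replicate 2 (limma adjusted p = 0.0599 to 0.0639). All these shares of the 10 lie at or below those of all genes tested, except that in Cre + Δpro#3 against Cre + NFIA. At 1.5-fold or more only Dbp in Cre + Δpro#3 against ctrl was called (5.8% of all genes), where the shares of all genes were 0.609% in Cre against ctrl, 6.91% in Cre + NFIA against Cre, 3.47% in Cre + Δpro#3 against Cre, 3.12% in Cre + Δpro#3 against Cre + NFIA and 7.97% in Cre + NFIA against ctrl. The largest difference at day 0 was 0.64, that of Dbp in Cre + Δpro#3 against ctrl.

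**Figure D4:**
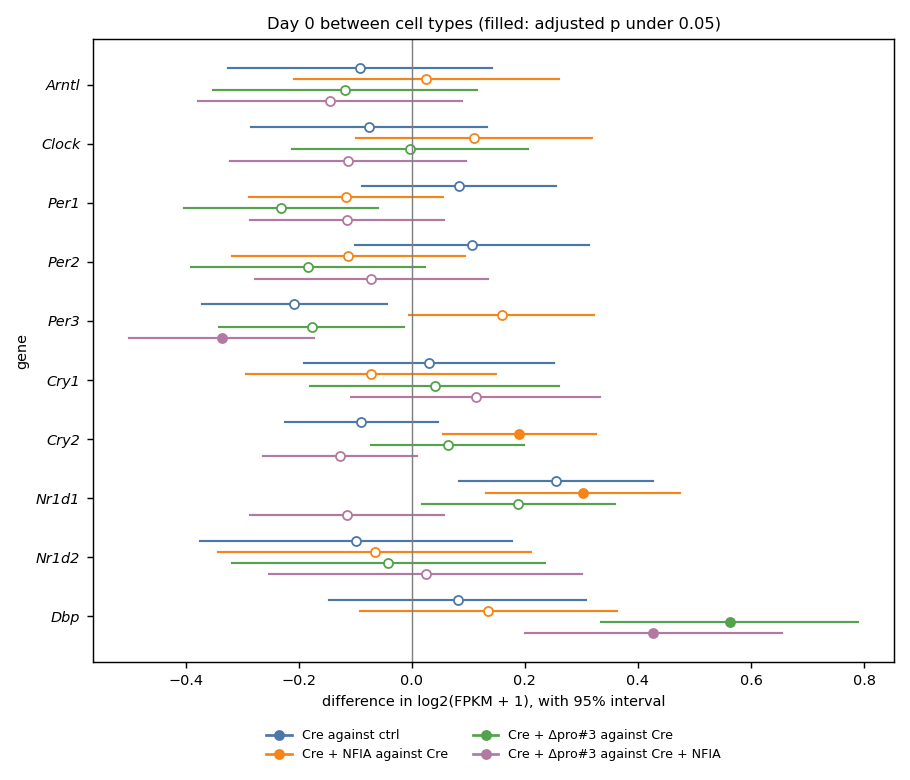
Difference in log2(FPKM + 1) between cell types at day 0 (x axis) for each clock gene (y axis), with 95% intervals, where filled points had an adjusted p under 0.05. Dbp was 0.56 above Cre and 0.43 above Cre + NFIA in Cre + Δpro#3, Nr1d1 and Cry2 were 0.30 and 0.19 above Cre in Cre + NFIA, and Per3 was 0.34 lower in Cre + Δpro#3 than in Cre + NFIA.

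A test of whether a difference between cell types changed from day 0 to day 7 called 3 clock genes for Cre against ctrl, all with a negative term (49.2% of all genes called, 29.7% higher and 19.5% lower). It called 4 for Cre + NFIA against Cre, all with a positive term (48.9% of all genes called, 18.8% higher and 30.1% lower), and for Cre + Δpro#3 against Cre 2, with a negative term (18.2% of all genes called, 7.79% higher and 10.4% lower). At 1.5-fold or more the counts were 0 (25.7% of all genes), 0 (27.2%) and 1, Dbp (7.57%).

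The 4 cell types were also put in order of mean level for each gene, which gives 30 neighbouring pairs a day. The order came from the same values that were tested. Such counts were not made over all genes, so those of the clock genes are a description only. At day 0 limma called 1 pair, Dbp in Cre + Δpro#3 and Cre + NFIA, and in 7 pairs the libraries of both groups did not overlap, among them all 3 pairs of Nr1d1. At day 7 it called 6 pairs, and 11 did not overlap. Of those called, Clock, Per3 and Cry2 stepped down between ctrl and Cre, Cry1 and Dbp stepped down from Cre + NFIA to the cell type next below it (Cre + Δpro#3 and Cre), and Cry2 stepped down again from Cre to Cre + Δpro#3. For Arntl, Per1, Per2, Nr1d1 and Nr1d2 no neighbours at day 7 were called on the scale reported. With median-of-ratios size factors Per1 (-0.26, limma adjusted p = 0.0121) and Per2 (-0.23, limma adjusted p = 0.00813) were called lower in Cre + Δpro#3 than in Cre + NFIA, and they were also called with quantile normalization and limma voom.

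Of 31 other clock-related genes in the files 30 were tested, in 5 lists (clock paralogs and ROR activators, PAR bZIP factors and their repressor, other E-box repressors, kinases and ligases that act on clock proteins, and clock-controlled output genes). At day 7 21 of the 30 were called in Cre against ctrl, 10 higher and 11 lower (58.8% of all genes called, 36.1% higher and 22.7% lower). Those called in Cre + NFIA against Cre were 22, 12 higher and 10 lower (63% of all genes called, 27% higher and 35.9% lower). Those in Cre + Δpro#3 against Cre + NFIA were 21, 10 higher and 11 lower (69.2% of all genes called, 40.4% higher and 28.9% lower), and those in Cre + Δpro#3 against Cre were 5, 1 higher and 4 lower (17.7% of all genes called). The median log2 difference was -0.12 in Cre against ctrl, where that of all genes tested was 0.09, and 0.17 in Cre + NFIA against Cre, where it was -0.06. The 9 output genes held 6 lower and 1 higher in Cre against ctrl, and 7 higher and 1 lower in Cre + NFIA against Cre. Of the 10 kinases and ligases 6 were higher and 2 lower in Cre against ctrl, and 0 higher and 6 lower in Cre + NFIA against Cre. Under median-of-ratios scaling the last count was 4 higher and 6 lower, and the 30 genes were 9 higher and 15 lower in Cre against ctrl and 18 higher and 9 lower in Cre + NFIA against Cre.

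Among the paralogs, Arntl2, which can take the place of Arntl beside CLOCK, was lower after differentiation. It was at 11.6, 12.9 and 11.7 FPKM (ctrl), 13.7, 12.4 and 11.5 FPKM (Cre), 10.2, 10.3 and 10.3 FPKM (Cre + NFIA) and 10.4, 12.6 and 11.8 FPKM (Cre + Δpro#3) at day 0. After differentiation the values were 4.07, 2.87 and 2.94 FPKM (ctrl), 6.23, 6.16 and 7.97 FPKM (Cre), 3.07, 3.18 and 3.62 FPKM (Cre + NFIA) and 9.74, 7.72 and 9.44 FPKM (Cre + Δpro#3). Day 7 differed from day 0 by -1.62 (SE 0.11, limma adjusted p = 2.54e-11) in ctrl, and at day 7 the gene was higher by 0.86 (SE 0.13, limma adjusted p = 0.000118) in Cre than in ctrl. Cre + NFIA differed from Cre by -0.85 (SE 0.13, limma adjusted p = 9.9e-05), and Cre + Δpro#3 differed from Cre + NFIA by 1.21 (SE 0.13, limma adjusted p = 3.79e-06).

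Bhlhe40 and Bhlhe41 encode repressors that compete for E-boxes. Bhlhe40 was at 6.70, 5.80 and 6.65 FPKM (ctrl), 5.66, 4.94 and 6.23 FPKM (Cre), 9.76, 8.51 and 8.63 FPKM (Cre + NFIA) and 8.61, 7.79 and 8.60 FPKM (Cre + Δpro#3) at day 0, where it was higher in Cre + NFIA than in Cre by 0.59 (SE 0.09, limma adjusted p = 0.000621). At day 7 Bhlhe41 was at 1.49, 1.76 and 1.79 FPKM (ctrl), 0.776, 0.732 and 0.754 FPKM (Cre), 2.20, 2.49 and 2.12 FPKM (Cre + NFIA) and 0.812, 0.972 and 1.16 FPKM (Cre + Δpro#3). The ctrl and Cre + NFIA libraries lay above all others, with -0.61 (SE 0.10, limma adjusted p = 0.000187) in Cre against ctrl, 0.90 (SE 0.10, limma adjusted p = 6.44e-06) in Cre + NFIA against Cre and -0.73 (SE 0.10, limma adjusted p = 2.77e-05) in Cre + Δpro#3 against Cre + NFIA. Noct, a rhythmic gene whose product acts on nicotinamide cofactors and is linked to fat storage, was at 51.8, 60.5 and 56.6 FPKM (ctrl), 27.5, 31.97 and 21.95 FPKM (Cre), 49.5, 53.6 and 51.1 FPKM (Cre + NFIA) and 9.55, 11.6 and 14.02 FPKM (Cre + Δpro#3) at day 7. It differed by -1.04 (SE 0.14, limma adjusted p = 4.69e-05) in Cre against ctrl, 0.91 (SE 0.14, limma adjusted p = 9.74e-05) in Cre + NFIA against Cre and -1.14 (SE 0.14, limma adjusted p = 0.000441) in Cre + Δpro#3 against Cre. Nampt, the rate-limiting enzyme of NAD salvage, was at 34.6, 32.7 and 39.02 FPKM (ctrl), 24.1, 21.8 and 21.4 FPKM (Cre), 40.2, 46.6 and 42.8 FPKM (Cre + NFIA) and 18.6, 17.96 and 21.98 FPKM (Cre + Δpro#3) at day 7, and differed by -0.63 (SE 0.09, limma adjusted p = 7.6e-05) in Cre against ctrl and 0.91 (SE 0.09, limma adjusted p = 2.85e-06) in Cre + NFIA against Cre. Csnk1e, a kinase that marks PER proteins for decay, differed by -0.64 (SE 0.08, limma adjusted p = 1.35e-05) in Cre + NFIA against Cre and 0.74 (SE 0.08, limma adjusted p = 2.6e-06) in Cre + Δpro#3 against Cre + NFIA.

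**Figure D5:**
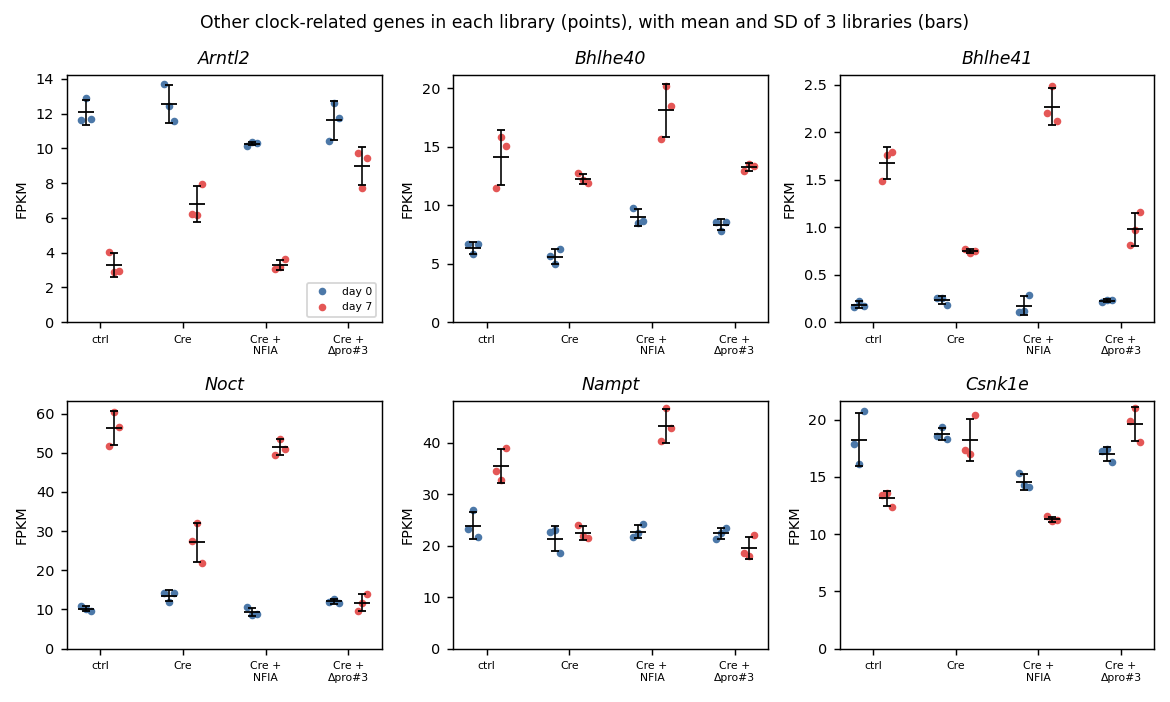
FPKM (y axis, from 0) of 6 other clock-related genes in the 4 cell types at day 0 (blue) and day 7 (red), where points are libraries and black bars are the mean and SD of 3 libraries. Arntl2 at day 7 was highest in Cre + Δpro#3 (7.72 to 9.74 FPKM), and Csnk1e at day 7 was lowest in Cre + NFIA (11.2 to 11.5 FPKM).

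Clock inputs were read from lists of glucocorticoid response genes (11 tested) and immediate early genes (10 tested), the former because dexamethasone is in the induction mix. At day 7 the glucocorticoid list had 7 higher and 3 lower in Cre against ctrl, 2 higher and 9 lower in Cre + NFIA against Cre, and 8 higher and 3 lower in Cre + Δpro#3 against Cre + NFIA. The immediate early list had 5 higher and 0 lower, 0 higher and 6 lower, and 6 higher and 1 lower in the same comparisons. Over all genes tested 58.8%, 63% and 69.2% were called in them, with the directions given above, and the split over all genes turned with the scaling. Under median-of-ratios scaling the glucocorticoid list had 5 higher and 3 lower, 2 higher and 6 lower, and 8 higher and 3 lower, and the immediate early list 5 and 1, 1 and 5, and 6 and 2. The part of either in the clock gene differences was not tested.

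For the 3 clock genes whose group means spanned at least 1 on the log2 scale, the genes with the most similar pattern over the 24 libraries were listed by Pearson's r, as a description over 12179 genes. For Clock they were Gpr155 and Smim10l1 (r = 0.97 each), for Cry1 Efs (0.98) and Hist1h2bc (0.97), and for Dbp Hist1h1c and Tomm20 (0.96 each). The libraries share day and cell type, and 781 genes reached an r of 0.9 with Clock, 271 with Cry1 and 305 with Dbp.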

How the data were processed

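RNA from 24 libraries (4 cell types, day 0 and day 7, 3 replicates) was sequenced by the authors after TruSeq Stranded mRNA preparation. They aligned reads to mm9 with STAR 2.5.3a, kept unique alignments, counted reads on the matching strand and deposited FPKM per gene. The annotation is not given in the sources used here. Each FPKM multiplied by gene length gave whole reads for 100% of values (tolerance 0.05 reads).

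Groups followed the sample labels. Genes at 1 FPKM or more in at least 3 of 24 libraries were kept (12640 of 24825). Group means of log2(FPKM + 1) were compared with limma 3.58.1 in R 4.3.3 (mean-variance trend, Benjamini-Hochberg adjustment over all genes tested), using the 12 libraries of a day within days and all 24 between days and for interactions. As an alternative for counts, limma voom on recovered reads called 7309 genes in Cre against ctrl at day 7. Other alternatives were another pseudocount, filter, scaling or sample set, limma without the trend, a replicate block, fold thresholds and each library left out.

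Named genes were the 10 clock genes, some of the other clock genes called at 1.5-fold or more between cell types, Nfia, and for each clock gene spanning at least 1 on the log2 scale the 2 genes most correlated with it. Further other clock genes passed the 1.5-fold rule and are not named. These genes and all lists were chosen with earlier results of these data known. Libraries of the same group differed by more than sampling noise (chi-square over degrees of freedom 2.17 to 15.2 in 24 pairs), so none was counted as a repeat. The fits were tested on simulated data. The values of 1 gene of these lists are not reported here.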

Additional observations from a re-analysis of the deposited data

Results flagged for a closer look

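For 9 gene and contrast pairs the difference between cell types at day 7 differed from that at day 0, by an interaction term over all 24 libraries with limma. In Cre against ctrl 3 of 10 clock genes passed (49.2% of all genes tested), all with a negative term. For Dbp the difference was 0.08 at day 0 and -0.47 at day 7, with an interaction of -0.55 (SE 0.16, limma adjusted p = 0.00694). For Nr1d1 it was 0.26 and -0.09, with -0.35 (SE 0.11, limma adjusted p = 0.0139). Both calls were kept without any 1 library. For Per3 it was -0.21 and -0.47, with -0.27 (SE 0.10, limma adjusted p = 0.0351), which was lost without ctrl day 0 replicate 1, Cre day 0 replicates 1 or 3, ctrl day 7 replicate 3 or Cre day 7 replicate 2 (limma adjusted p = 0.0527 to 0.0988). The Per3 call was also lost with only the groups compared (limma adjusted p = 0.0695). Under each scaling tried Clock, Cry1 and Cry2 were called too, with negative terms (limma adjusted p = 0.0105 to 0.0303).

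In Cre + NFIA against Cre 4 of 10 passed (48.9% of all genes tested), all with a positive term. For Per3 the difference was 0.16 at day 0 and 0.67 at day 7, with an interaction of 0.51 (SE 0.10, limma adjusted p = 0.000292), kept without any 1 library. For Per1 it was -0.12 and 0.19, with 0.31 (SE 0.11, limma adjusted p = 0.0214), lost without Cre day 0 replicate 3, Cre + NFIA day 0 replicate 2 or Cre + NFIA day 7 replicate 1 (limma adjusted p = 0.0531 to 0.0628). For Cry2 it was 0.19 and 0.42, with 0.23 (SE 0.08, limma adjusted p = 0.0237), lost without Cre day 0 replicate 1, Cre + NFIA day 0 replicate 3, Cre day 7 replicate 1 or Cre + NFIA day 7 replicate 3 (limma adjusted p = 0.0531 to 0.0753). For Clock it was 0.11 and 0.51, with 0.40 (SE 0.16, limma adjusted p = 0.0467), lost without Cre day 0 replicates 1, 2 or 3, Cre + NFIA day 0 replicates 1, 2 or 3, Cre day 7 replicates 2 or 3 or Cre + NFIA day 7 replicates 1 or 2 (limma adjusted p = 0.0532 to 0.106). The Clock call was also lost with a pseudocount of 0.1, no filter, the replicate block or no trend (limma adjusted p = 0.0504 to 0.0708). Cry1 had a term of 0.26 (95% interval 0.02 to 0.51, limma adjusted p = 0.0676) and was not called as reported. Under each scaling tried it was called (limma adjusted p = 0.0129 to 0.0256), as with a pseudocount of 5 (0.0497).

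In Cre + Δpro#3 against Cre 2 of 10 passed (18.2% of all genes tested). For Dbp the difference was 0.56 at day 0 and -0.05 at day 7, with an interaction of -0.62 (SE 0.16, limma adjusted p = 0.00993), kept without any 1 library. For Cry2 it was 0.06 and -0.19, with -0.25 (SE 0.08, limma adjusted p = 0.036), lost without Cre day 0 replicate 2, Cre + Δpro#3 day 0 replicates 1 or 2, Cre day 7 replicates 2 or 3 or Cre + Δpro#3 day 7 replicates 1 or 3 (limma adjusted p = 0.0514 to 0.103). The Cry2 call was also lost under each scaling tried and with only the groups compared (limma adjusted p = 0.053 to 0.0872). These contrasts share the libraries labelled Cre. Groups of 3 libraries are too small for a check of single libraries that stand apart.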

How the results depend on the processing

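Each comparison within a day was recomputed under 13 other settings. The others had the same settings except the fit on all 24 libraries, which they already used. Each library of the groups compared was also left out. Leaving aside the 1.5-fold and 3-fold thresholds, given below, 3138 of 3340 values for the 10 genes kept their side of the test's threshold, 149 lost the call and 53 gained one. The sign changed in 102 values, of which 0 were called as reported or in the alternative. Not every setting that changed a call is named with its gene above. With a library left out, the count of clock genes called at day 0 was 0 to 0 in Cre against ctrl, 0 to 2 in Cre + NFIA against Cre, 1 to 2 in Cre + Δpro#3 against Cre and in Cre + Δpro#3 against Cre + NFIA, 1 to 2 in Cre + NFIA against ctrl and 3 to 3 in Cre + Δpro#3 against ctrl. At day 7, in the same order, it was 4 to 5, 5 to 7, 0 to 1, 4 to 5, 0 to 1 and 5 to 7. From day 0 to day 7 it was 7 to 8 in ctrl and in Cre, 6 to 8 in Cre + NFIA and 5 to 7 in Cre + Δpro#3, and the interactions gave 2 to 4, 2 to 3 and 1 to 3. Shares of all genes called with a library left out are not given here, and those as reported stand with each comparison above.

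At 1.5-fold or more beside the adjusted p, the count at day 7 was 0 in Cre against ctrl, Cre + NFIA against ctrl, Cre + Δpro#3 against Cre and Cre + Δpro#3 against ctrl, 1 in Cre + NFIA against Cre and 3 in Cre + Δpro#3 against Cre + NFIA. At day 0 it was 1 in Cre + Δpro#3 against ctrl and 0 in the others. From day 0 to day 7 it was 3 in ctrl and in Cre + NFIA, 2 in Cre and 1 in Cre + Δpro#3, and the interactions gave 0, 0 and 1. At 3-fold it was 1 in ctrl between days and 0 elsewhere.

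Brackets in this paragraph give the genes called among all 12640 tested, unless another total is named. With all 24 libraries in 1 fit, 2 clock genes were called in Cre + NFIA against ctrl at day 7 (2601) and 2 in Cre + Δpro#3 against Cre at day 0 (2612). With only the groups compared the day 0 counts were 0 in Cre + NFIA against Cre (2915), 2 in Cre + Δpro#3 against Cre (2084) and 1 in Cre + Δpro#3 against Cre + NFIA (1660). At day 7 they were then 0 in Cre + NFIA against ctrl (2213) and in Cre + Δpro#3 against Cre (1226). With median-of-ratios size factors and with quantile normalization they were 1 in Cre + NFIA against Cre at day 0 (3426 and 3485). At day 7 they were 0 in Cre + NFIA against ctrl (2303 and 2220) and 1 in Cre + Δpro#3 against Cre (2107 and 2514). Among interactions these 2 scalings gave 6 for Cre against ctrl (6126 and 6020, and 6224 as reported) and 1 for Cre + Δpro#3 against Cre (2183 and 2414, and 2296 as reported). With limma voom on recovered reads the day 0 counts were 1 in Cre + NFIA against Cre (3387) and 2 in Cre + Δpro#3 against Cre (2392). They were 0 in Cre + Δpro#3 against Cre at day 7 (2238), and 6 (5794) and 1 (1958) for those interactions. A mean FPKM of at least 5 gave 1 in Cre + NFIA against Cre at day 0 (2763 of 8789 genes). No filter (2256 of 19037 genes) and a pseudocount of 5 (2245) each gave 2 in Cre + NFIA against ctrl at day 7. The cause of these differences was not tested.

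With the replicate number as a block 1 clock gene was called in Cre + NFIA against Cre at day 0 (3395 of all 12640 genes) and 1 in Cre + Δpro#3 against Cre at day 7 (2258 of all genes). Deviations of same-numbered libraries from their group means had r = -0.27 to 0.22 over 48 pairs, and in 0 of 16 comparisons was every pair over 0.1. With 3 libraries in a group this cannot tell whether same-numbered libraries shared a culture or harvest. Over all genes at day 7, limma voom on recovered reads called 3514 higher and 3795 lower in Cre against ctrl, 4259 and 3749 in Cre + NFIA against Cre, and 4187 and 4538 in Cre + Δpro#3 against Cre + NFIA (5101 and 3649 as reported). From day 0 to day 7 in Cre, 3795 were higher and 2736 lower, and 2869 and 3768 with quantile normalization. The lowest read count behind a clock gene value was 62 (Dbp).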

Other observations

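Other gene lists at day 7 were counted beside the clock genes. Of all genes tested limma called 58.8% in Cre against ctrl, 63% in Cre + NFIA against Cre, 69.2% in Cre + Δpro#3 against Cre + NFIA and 17.7% in Cre + Δpro#3 against Cre. Of 9 adipose precursor markers tested 8 were higher and 0 lower in Cre against ctrl (median log2 difference 0.75), and 0 were higher and 9 lower in Cre + NFIA against Cre (-1.04). Of 5 smooth muscle markers 3 were higher and 1 lower in Cre against ctrl, 1 higher and 4 lower in Cre + NFIA against Cre, and 4 higher and 1 lower in Cre + Δpro#3 against Cre + NFIA. Their summed level was 150 to 181 FPKM in Cre + NFIA and 436 to 535 FPKM in Cre + Δpro#3. Of 3 tested genes that lie on the other strand beside a clock gene, 2 were higher in Cre against ctrl and 2 lower in Cre + NFIA against Cre. In Cre + Δpro#3 against Cre 0 of the 10 immediate early genes were called by limma, while 10 of 11 glucocorticoid response genes were, 7 higher and 3 lower.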
